A study of Mus musculus with 7 samples.

Results

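Cluster 1 was a group of 554 cells out of 4290 myeloid cells with counts, and it was taken as every counted cell that the study's own clustering at resolution 1 put into that cluster. The file headers name a neighbour graph of RNA values for the clusterings, so all RNA contrasts between clusters are descriptions. Whether the surface antibody tags also entered the clusters is not stated, so contrasts of tags between clusters are descriptions too. CD11b+ cells, the myeloid cells that carry this integrin chain, were enriched with magnets from C57/Bl6 mice and read by single-cell RNA sequencing together with oligo-tagged antibodies (CITE-seq). The tumor-bearing mice carried LLC tumors, a transplantable lung carcinoma line of this strain, and were sampled at day 14, and naive mice carried none. The 7 libraries were blood, bone marrow, spleen and tumor tissue of tumor-bearing mice and blood, bone marrow and spleen of naive mice. Each tissue and state was 1 library, no altered allele is named for any group, and the sources used here do not give the age or number of the animals or any pooling. No difference between libraries therefore had a replicate check, no test was made, and the exact 95% intervals below cover counting error only.

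Mouse blood holds classical monocytes, which carry much Ly6C and CCR2 and enter inflamed tissue, and non-classical monocytes, which carry little Ly6C and patrol the vessel wall. Classical cells leave the bone marrow and part of them convert into non-classical cells in the circulation, a step that needs the nuclear receptor Nr4a1 and the factor C/EBPβ in mice. The spleen holds a reservoir of both kinds. In these data cluster 0 held cells with the genes of classical monocytes and cluster 4 cells with those of non-classical monocytes, and cluster 1 is described mainly against these neighbours.

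The 8 markers given for cluster 1 encode proteins of different kinds, and their genes lie apart in the genome (build GRCm38, GENCODE annotation). Serpinb10, a serpin protease inhibitor of blood-forming cells, lies on the plus strand at chr1:107529003-107549271, and this annotation types it as a polymorphic pseudogene. Tppp3, a protein that promotes tubulin polymerization, lies on the minus strand at chr8:105467493-105471526. Ace, the angiotensin-converting enzyme, lies at chr11:105967945-105989964, and Adgre4, an adhesion receptor of the F4/80 family, at chr17:55749984-55853662. Itgal, the alpha chain of the integrin LFA-1, lies at chr7:127296260-127335138, and Rasgrp2, an exchange factor that activates the integrin regulator Rap1, at chr19:6399340-6415216. Gngt2, a gamma subunit of heterotrimeric G proteins, lies at chr11:95837216-95845734, and Hpgd, a dehydrogenase that inactivates prostaglandins, at chr8:56294585-56321043.

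RefSeq promoters of build GRCm38.p6, from 250 bases before to 50 bases after the start of the gene, were given for 5 of the 8 markers. Those of Serpinb10, the gene that gives the cluster its name, and of Ace and Adgre4, the markers with the widest gap from cluster 0, are shown with motif matches in capitals. All 3 are on the plus strand, at chr1:107528753-107529052 for Serpinb10, chr11:105967698-105967997 for the upstream of 2 Ace entries, and chr17:55749734-55750033 for Adgre4.
Serpinb10: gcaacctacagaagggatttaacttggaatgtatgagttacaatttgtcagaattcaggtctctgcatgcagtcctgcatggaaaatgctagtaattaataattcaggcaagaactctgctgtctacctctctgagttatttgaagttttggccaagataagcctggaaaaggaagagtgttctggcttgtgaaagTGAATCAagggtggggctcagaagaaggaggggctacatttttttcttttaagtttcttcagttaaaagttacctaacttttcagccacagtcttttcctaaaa
Ace: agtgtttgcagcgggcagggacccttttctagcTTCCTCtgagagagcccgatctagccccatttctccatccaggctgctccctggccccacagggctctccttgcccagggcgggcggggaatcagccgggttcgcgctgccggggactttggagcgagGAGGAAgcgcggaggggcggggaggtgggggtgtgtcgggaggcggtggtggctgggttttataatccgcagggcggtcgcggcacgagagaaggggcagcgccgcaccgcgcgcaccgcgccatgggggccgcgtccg
Adgre4: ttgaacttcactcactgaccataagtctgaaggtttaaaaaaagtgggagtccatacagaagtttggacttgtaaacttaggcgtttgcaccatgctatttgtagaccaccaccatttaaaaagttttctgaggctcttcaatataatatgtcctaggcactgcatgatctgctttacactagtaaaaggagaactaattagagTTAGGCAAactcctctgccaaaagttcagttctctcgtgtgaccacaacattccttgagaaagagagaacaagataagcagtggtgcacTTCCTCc
The motifs searched on both strands were GAGGAA for PU.1, TTGCNNAA for C/EBP, TGANTCA for AP-1, AAAGGTCA for NR4A receptors and CCACACCC for KLF factors, and no match overlapped another in these windows. The Serpinb10 window held an AP-1 match, the Ace window 2 PU.1 matches and the Adgre4 window 1 C/EBP and 1 PU.1 match. Among all 32851 RefSeq promoters, 28.3% held the PU.1 letters, 10.8% the C/EBP letters, 7.81% the AP-1 letters, 1.51% the NR4A letters and 3.56% the KLF letters. A match is a description of letters, not of binding.

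Cells of cluster 1 were common in blood and spleen in both states, and intervals of the states overlapped in either tissue. In blood they were 73 of 354 cells of tumor-bearing mice, 20.6% (exact Clopper-Pearson interval 16.5 to 25.2%), and 183 of 814 cells of naive mice, 22.5% (19.7 to 25.5%). In spleen they were 165 of 579 cells of tumor-bearing mice, 28.5% (24.9 to 32.4%), and 107 of 416 cells of naive mice, 25.7% (21.6 to 30.2%). In each state the spleen share was larger than the blood share, with intervals that overlapped. In bone marrow they were 8 of 57 cells in tumor-bearing mice, 14.0% (6.26 to 25.8%), and 17 of 153 cells in naive mice, 11.1% (6.61 to 17.2%). Over all marrow cells with a cluster label, with or without counts, the order of the states was the other way. The shares there were 8.42% of 95 cells in tumor-bearing and 9.14% of 186 cells in naive mice. Tumor tissue gave 1 cell of 1917, 0.0522% (0.00132 to 0.290%), so the cluster was nearly absent from the tumor library. These are shares of magnetically enriched cells, not of all leukocytes. Median depth of cluster 1 cells ran from 9382 UMIs (unique molecular identifiers, counted molecules) in tumor-bearing spleen to 12120 in tumor-bearing blood, and no cell barcode of cluster 1 was shared with another library. The comparisons below use the 528 cells of blood and spleen, with the UMIs of all cluster cells of a library added up and given as UMIs per 1000000 (CPM).

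The name of the cluster was checked against its genes. Csf1r, the receptor for the growth factor of monocytes, stood at 839, 753, 862 and 863 CPM in cluster 1 of tumor-bearing blood, naive blood, tumor-bearing spleen and naive spleen. Ly6c2 and Ccr2 of classical cells (702 to 947 and 638 to 774 CPM) and Cx3cr1 of non-classical cells (267 to 393 CPM) were all present. Among marker lists of other cell types, T and NK cells summed to 5.53 to 11.6 CPM, platelets to 0 to 18.2 CPM, stroma and carcinoma to 1.11 to 2.68 CPM, and basophils and mast cells to 0 CPM. Summed markers reached 105 to 125 CPM for conventional dendritic cells and 146 to 194 CPM for macrophages. Neutrophil markers were more abundant, with 2237, 426, 2211 and 793 CPM in tumor-bearing blood, naive blood, tumor-bearing spleen and naive spleen. In tumor-bearing blood, however, single cells held most UMIs of the members S100a8, S100a9 and Retnlg, as given below. Plasmacytoid dendritic cell markers summed to 280 to 354 CPM and B and plasma cell markers to 168 to 378 CPM. The given markers, however, did not single the cluster out. Against all other counted cells of blood and spleen, 0 of 4978 measured genes (0%) were higher past 2-fold in each of the 4 libraries, and Serpinb10, at 410, 314, 394 and 322 CPM in cluster 1, stood at 227, 159, 264 and 209 CPM in the other cells. Tppp3 had 305, 294, 464 and 421 CPM in cluster 1 and 201, 173, 316 and 210 CPM in the other cells. The cells are called by their cluster number below.

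Against cluster 0, all 8 given markers had higher values in cluster 1 in each library, and against cluster 4 none was higher past 2-fold. Genes counted as measured had 30 or more UMIs over both sides and reached 20 CPM on either, and a gene was called past 2-fold only where each of the 4 libraries gave the same direction. In the order tumor-bearing blood, naive blood, tumor-bearing spleen and naive spleen, Serpinb10 had 410, 314, 394 and 322 CPM in cluster 1, against 157, 129, 178 and 186 CPM in cluster 0 and 386, 301, 380 and 348 CPM in cluster 4. Tppp3 had 305, 294, 464 and 421 CPM in cluster 1, against 141, 122, 278 and 142 CPM in cluster 0 and 306, 251, 442 and 338 CPM in cluster 4. Both genes thus stood at about the level of cluster 4, with median ratios over cluster 4 of 1.04 (0.927 to 1.06 over the 4 libraries) for Serpinb10 and 1.11 (0.996 to 1.25) for Tppp3. Their median ratios over cluster 0 were 2.32 (1.73 to 2.61) and 2.29 (1.67 to 2.97), and neither was past 2-fold in each library.

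Ace stood apart from both neighbours, with 244, 212, 302 and 265 CPM in cluster 1, against 28.1, 18.5, 43.6 and 20.6 CPM in cluster 0 and 727, 666, 793 and 600 CPM in cluster 4. Cluster 1 was 10.1-fold over cluster 0 by the median (6.92 to 12.9) and 2.80-fold under cluster 4 (2.26 to 3.14), and the 3 clusters kept this order in each library. Adgre4 had 193, 175, 186 and 149 CPM in cluster 1, against 31.2, 54.8, 45.4 and 60.7 CPM in cluster 0 and 402, 359, 377 and 377 CPM in cluster 4, and so lay between them in every library. Itgal, at 496, 456, 649 and 585 CPM in cluster 1, was 2.56-fold over cluster 0 by the median and 2.0-fold under cluster 4. Gngt2, at 1186, 1032, 1103 and 1015 CPM in cluster 1, was 3.22-fold over cluster 0 (3.02 to 3.42) and 1.90-fold under cluster 4 (1.78 to 2.0). Rasgrp2, at 208 to 255 CPM in cluster 1, and Hpgd, at 224 to 327 CPM, differed least, with median ratios over cluster 0 of 1.79 and 1.61. So 4 of the 8 markers, Ace, Adgre4, Itgal and Gngt2, were called higher than in cluster 0, and 2, Ace and Adgre4, were called lower than in cluster 4. Since the markers were given for this cluster, nothing is read from these counts.

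**Figure D1:**
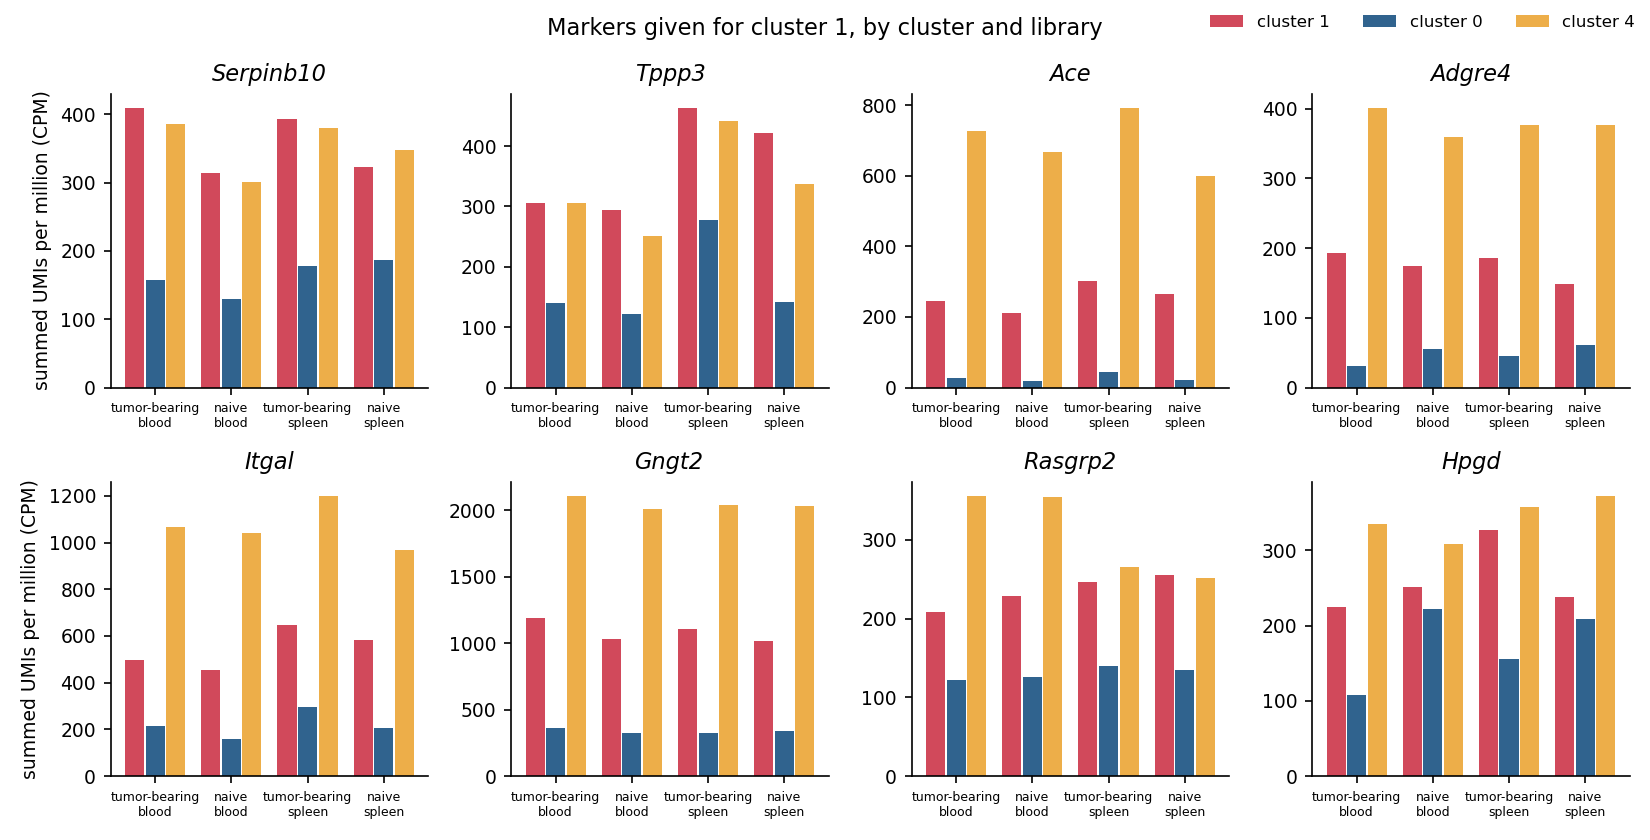
Bars give the level (CPM) of each of the 8 given markers in clusters 1, 0 and 4 of the 4 blood and spleen libraries, 1 bar per cluster and library with no error bar, since each is 1 library. Serpinb10 and Tppp3 stand at about the level of cluster 4, whereas Ace at 212 to 302 CPM and Adgre4 at 149 to 193 CPM in cluster 1 lie between the other bars.

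Over the whole transcriptome, 25 of 4924 measured genes (0.508%) were higher in cluster 1 than in cluster 0 in each library and 7 (0.142%) were lower. Genes of non-classical monocytes were among the higher ones: 7 of 13 measured members of that list passed, namely Ace, Adgre4, Itgal, Treml4, Ear2, Spn and Nr4a1. The list's median log2 ratio was 1.35, beside 0.01 over all measured genes. Treml4, a receptor of the TREM family, had 172, 129, 101 and 120 CPM in cluster 1 against 23.4, 14.7, 18.2 and 21.5 CPM in cluster 0, a median of 6.46-fold (5.55 to 8.80). Nr4a1 had 240, 249, 257 and 262 CPM in cluster 1 against 76.5, 70.3, 76.3 and 115 CPM in cluster 0 (3.25-fold, 2.29 to 3.55). Ear2, a secreted ribonuclease with near-identical copies among which reads may be split, was 3.96-fold higher (3.47 to 5.05), and Spn, the sialoglycoprotein CD43, 3.42-fold higher (3.27 to 4.77). Every cluster 1 value of these 4 genes exceeded the cluster 0 value of its library.

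Other genes past 2-fold over cluster 0 did not belong to that list. Hes1, a repressor downstream of Notch, had 48.6, 50.3, 57.0 and 78.5 CPM in cluster 1 and 1.56, 5.61, 12.7 and 17.6 CPM in cluster 0. Ddit4, an inhibitor of mTOR signalling, was 12.8-fold higher by the median, but its range of 2.82 to 25.7 shows how far the libraries differed. Dusp2, a phosphatase of MAP kinases, was 8.54-fold higher, and Lair1, an inhibitory collagen receptor, 4.03-fold higher. A pair of sterol enzymes, Cyp51 and Msmo1, was in the same set. Cyp51 had 50.8, 59.1, 23.4 and 45.5 CPM in cluster 1, against 7.81, 11.2, 8.17 and 4.90 CPM in cluster 0 and 55.7, 94.7, 36.8 and 47.6 CPM in cluster 4, so cluster 1 lay nearest to cluster 4 in tumor-bearing blood and naive spleen. Fdps, of the same pathway, had 81.8, 123, 53.9 and 88.4 CPM in cluster 1 and 32.0, 20.3, 31.8 and 22.5 CPM in cluster 0. It missed 2-fold in tumor-bearing spleen alone, as did Idi1, with 40.9, 83.8, 19.6 and 38.4 CPM in cluster 1 and 18, 8.20, 12.7 and 6.86 CPM in cluster 0. Fdps and Idi1 were chosen after their values were seen.

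Among the genes lower than in cluster 0 were Ccr1, Thbs1, Mmp8, F13a1, Cd14 and Slpi. F13a1, a coagulation factor subunit typical of classical monocytes, had 304, 390, 293 and 356 CPM in cluster 1, against 1024, 986, 876 and 933 CPM in cluster 0 and 53.2, 120, 81.0 and 82.2 CPM in cluster 4, so the 3 clusters kept the same order in each library. Ccr1, a chemokine receptor, had 23.2, 6.41, 12 and 3.57 CPM in cluster 1, against 112, 41.0, 61.8 and 32.3 CPM in cluster 0, and in 3 of the libraries it lay below cluster 4 as well (20.6, 13.4, 25 and 8.66 CPM). Mmp8, a collagenase, was 3.68-fold lower by the median (3.51 to 4.27). Of the classical list 3 of 19 measured members were lower, with a median log2 ratio of -0.50. Markers of neutrophils moved with this contrast: their summed level was 2237, 426, 2211 and 793 CPM in cluster 1 and 2788, 2049, 5607 and 2342 CPM in cluster 0, and 1 of 6 measured ones, Mmp8, was past 2-fold. The cluster 1 sum of tumor-bearing blood includes single cells that held most UMIs of S100a8, S100a9 and Retnlg. Ltf and Camp were at 0 UMIs in cluster 1 of both blood libraries. The part of these markers in the result was not tested.

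Among 20 RefSeq promoters of 18 of the 25 genes higher than in cluster 0, 7 (35%) held the PU.1 letters, among them Treml4 and Lair1, and 4 (20%) the C/EBP letters, among them Ear2 and Runx2. Promoters of all genes measured in this contrast held them in 28.3% and 8.92% of 4912 cases. The NR4A letters were in 0 of the 20 promoters, which says only that these letters are not in these windows.

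Against cluster 4, 10 of 4961 measured genes (0.202%) were higher in cluster 1 in each library and 25 (0.504%) were lower. Among the higher ones were 4 of 19 measured members of the classical monocyte list. The list was not uniform: Klf4 and Gpx1, for example, had lower values in cluster 1 than in cluster 4 in each library. Ccr2 had 774, 756, 638 and 652 CPM in cluster 1, against 284, 316, 258 and 313 CPM in cluster 4 and 1297, 1468, 1058 and 1219 CPM in cluster 0, and cluster 1 was 2.44-fold over cluster 4 by the median (2.08 to 2.72). Fn1, the matrix protein fibronectin, had 472, 661, 824 and 1071 CPM in cluster 1 against 126, 184, 190 and 253 CPM in cluster 4 (4.0-fold, 3.59 to 4.34). F13a1 was 3.98-fold higher (3.25 to 5.71) and Vcan, the proteoglycan versican, 3.89-fold higher. The others were not on the classical list. Gas7, an actin-binding protein, had the largest ratio of the 10 and was 6.70-fold higher (3.87 to 7.61). Olfm1 was 3.99-fold higher, Stxbp6 2.93-fold and S100a10 2.58-fold.

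Of the 25 genes lower than in cluster 4, 11 were among the 17 measured members of the non-classical list, whose median log2 ratio was -1.30 beside -0.02 over all measured genes. Of the 7 genes of that list called higher than in cluster 0, 5, Ace, Adgre4, Spn, Treml4 and Ear2, were also called lower than in cluster 4. Eno3, a muscle-type enolase, had 30.9, 13.8, 17.1 and 10.7 CPM in cluster 1, against 295, 247, 183 and 130 CPM in cluster 4 and 3.90, 1.73, 5.45 and 1.96 CPM in cluster 0. Fabp4, a fatty acid carrier, had 4.42, 5.91, 12 and 1.79 CPM in cluster 1 and 161, 80.2, 58.9 and 50.5 CPM in cluster 4, and Cd36, a fatty acid and lipoprotein receptor, was 7.20-fold lower by the median (4.39 to 14.4). Itgax, the integrin chain CD11c, had 9.95, 2.46, 8.87 and 3.57 CPM in cluster 1, against 58.1, 43.7, 35.3 and 37.5 CPM in cluster 4 and 3.12, 2.16, 6.36 and 3.92 CPM in cluster 0, so its values lay nearer to those of cluster 0. Spn and Ear2 were 2.75-fold and 3.15-fold lower.

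Survival genes of the BCL2 family belonged to the lower set. Bcl2, an inhibitor of apoptosis, had 15.5, 19.7, 8.24 and 10.7 CPM in cluster 1, against 99.2, 109, 26.5 and 47.6 CPM in cluster 4 and 3.12, 1.73, 1.82 and 0.979 CPM in cluster 0, a median of 4.98-fold under cluster 4 (3.22 to 6.41). Bcl2a1a, Bcl2a1b and Bcl2a1d were lower by 7.37-fold, 6.48-fold and 4.54-fold, but they are near-identical copies among which reads may be split, so their separate values are uncertain. In total, 4 of 12 measured family members were called lower and 0 higher. S1pr5, an egress receptor for sphingosine phosphate, had 23.2, 43.8, 41.8 and 46.4 CPM in cluster 1 and 116, 118, 98.6 and 114 CPM in cluster 4. Of MHC class II genes, 1 of 7 measured, H2-Aa, was called lower, at 211, 267, 168 and 204 CPM in cluster 1 and 501, 585, 349 and 600 CPM in cluster 4. Neutrophil markers summed to 3664, 1003, 5539 and 2981 CPM in cluster 4, above the 2237, 426, 2211 and 793 CPM of cluster 1. None of 6 measured ones was called in this contrast, which in a list this small is not a result. In tumor-bearing blood single cells of cluster 1 held most UMIs of S100a8, S100a9 and Retnlg.

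These contrasts were drawn together by the place of cluster 1 between its neighbours, a measure added after the data were seen. For each gene past 2-fold between clusters 4 and 0 in each library, 192 of 4983 measured, the position of cluster 1 was its log2 ratio over cluster 0 divided by that of cluster 4 over cluster 0, so that 0 is the level of cluster 0 and 1 that of cluster 4. Cluster 1 lay between both in all 4 libraries for 170 of the 192 genes. Its median position was 0.517 (quartiles 0.394 and 0.622), and by library 0.507 in tumor-bearing blood, 0.513 in naive blood, 0.520 in tumor-bearing spleen and 0.521 in naive spleen. The 134 genes that are higher in cluster 4 had a median position of 0.568 and the 58 genes lower there one of 0.408. The same measure gave 0.327 for cluster 2 and 0.344 for cluster 6, the other large clusters of blood and spleen.

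Genes differed in their position. Toward the level of cluster 4 stood, among others, Cyp51 at 0.86, Idi1 at 0.83, Tmem51 at 0.82 and Smpdl3b, a lipid phosphodiesterase, at 0.82. Hes1 at 0.79 and Fdps at 0.74 followed, with other genes between them. The position of Idi1 ran from 0.364 to 0.900 over the 4 libraries. In the middle were the transcription factors Nr4a1 at 0.61 and Bcl6 at 0.50, with Tcf7l2 at 0.67 and Pou2f2 at 0.67. Near the level of cluster 0 stood Itgax at 0.11, the intermediate filament gene Vim at 0.11, Stxbp6 at 0.10, Gas7 at 0.18 and Pglyrp1, a peptidoglycan-binding protein, at 0.19. Ccr1, at 1.61, was the gene farthest beyond cluster 4. Serpinb10 at 1.05 and Tppp3 at 1.16 stood at or above the level of cluster 4, although their ratio between clusters 4 and 0 missed 2-fold in at least 1 library and they were not among the 192 genes. Over the 192 genes 5 stood at 0.8 or more and 7 at 0.2 or less.

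**Figure D2:**
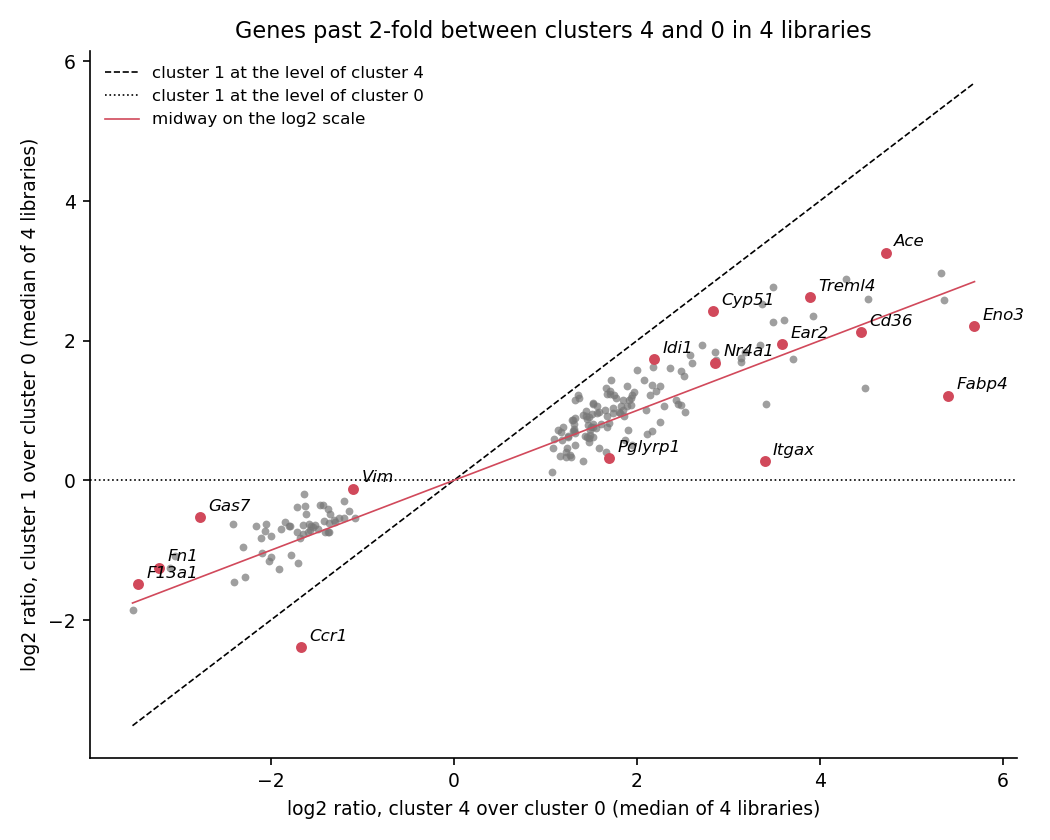
Each point is 1 of the 192 genes past 2-fold between clusters 4 and 0, with the log2 ratio of cluster 4 over cluster 0 on the x axis and that of cluster 1 over cluster 0 on the y axis, both as medians over 4 libraries. Most points follow the midway line (median position 0.517), while Itgax lies near the line of cluster 0 and Ccr1 beyond that of cluster 4.

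Cell by cell, genes higher in cluster 4 took a median of 1.5% of a cell's UMIs in cluster 1 (10th to 90th percentile 1.08 to 2.35%), against 0.728% in cluster 0 (0.540 to 1.08%) and 2.85% in cluster 4 (2.14 to 4.15%). Genes lower in cluster 4 took 1.27% in cluster 1 (0.785 to 1.81%), 1.97% in cluster 0 (1.45 to 2.56%) and 0.571% in cluster 4 (0.344 to 0.922%). Thinned to 5000 UMIs per cell, the medians for the first set were 76 UMIs in cluster 1, 37 in cluster 0 and 143 in cluster 4, and for the second set 64, 98 and 28 UMIs. Cluster 6 (1.81% for the first set and 1.36% for the second) and cluster 2 (1.21% and 1.4%) also had medians between those of clusters 0 and 4, so a median between them was not particular to cluster 1. By the summed share of the first set cluster 6 stood nearer to cluster 4 than cluster 1 did, and its cells spread more widely (10th to 90th percentile 0.698 to 4.84%). That set holds MHC class II genes at which cluster 6 stood beyond cluster 4, with positions of 1.70 for Cd74, 1.59 for H2-Aa, 1.77 for H2-Ab1 and 1.96 for H2-Eb1. Gene by gene, the median position over the set was 0.333 in cluster 6 and 0.568 in cluster 1. For the first set the 10th percentile of cluster 1 lay near the 90th of cluster 0, and its 90th percentile lay near the 10th of cluster 4. The genes were chosen on sums of the same cells, so these shares are a description.

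**Figure D3:**
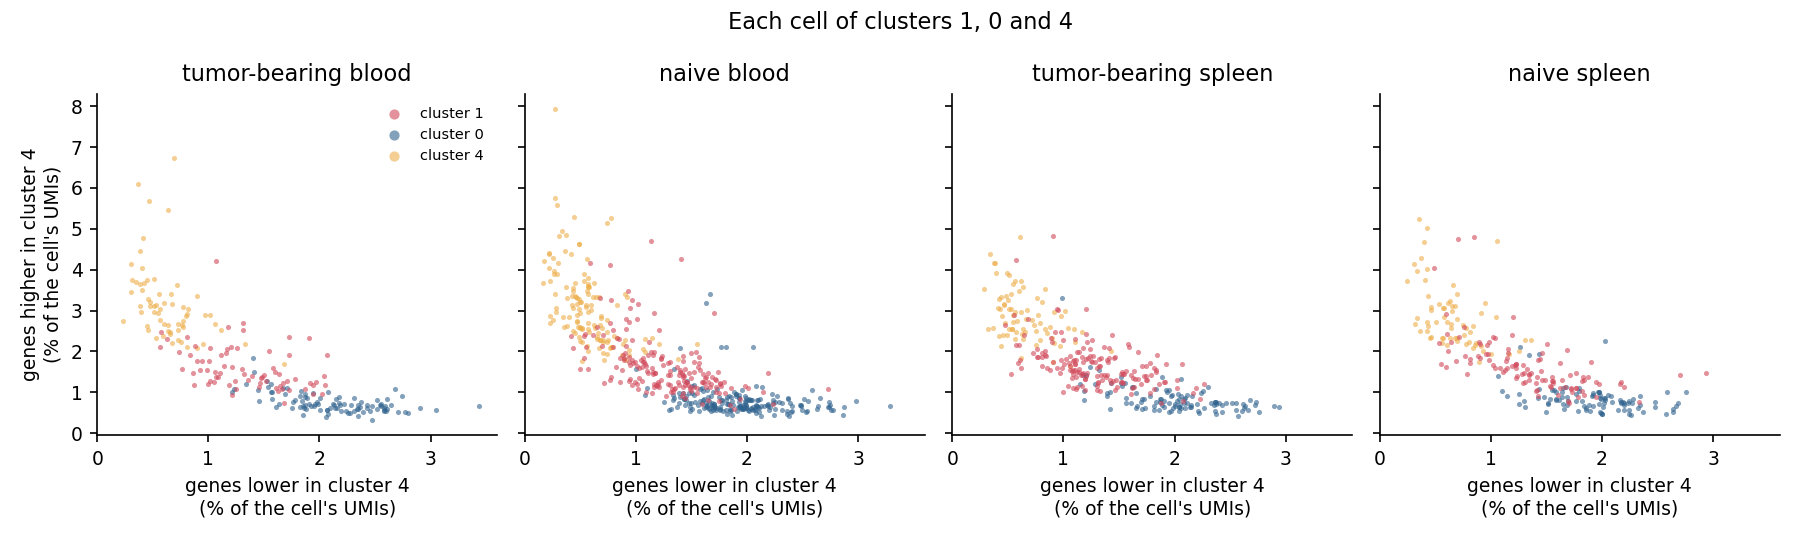
Each point is 1 cell of cluster 1, 0 or 4, with the share of its UMIs from genes lower in cluster 4 on the x axis and from genes higher in cluster 4 on the y axis (percent), 1 panel per library. Cells of cluster 1 fill the space between the other clouds, with a median of 1.27% on the x axis and 1.5% on the y axis over the 4 libraries.

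At the coarser clustering of the study, resolution 0.4, all 607 cells of cluster 0 fell into group 0 and all 343 cells of cluster 4 into group 3, and cluster 1 was split between these groups. Group 3 took 221 of its 554 cells (39.9%), with 31.5% of the cells in tumor-bearing blood, 32.2% in naive blood, 53.3% in tumor-bearing spleen and 39.3% in naive spleen. Between these portions of cluster 1, 3691 genes were measured and 2 passed 2-fold in each library. Pglyrp1 was higher in the cells of group 3, with 283, 191, 244 and 184 CPM, against 114, 73.9, 96.3 and 57.1 CPM in the cells of group 0. H2-Aa was lower, with 16.7, 148, 97.6 and 49.7 CPM in group 3 and 281, 315, 236 and 291 CPM in group 0. Serpinb10 was higher in the group 3 portion in each library (median ratio 1.25, 1.11 to 1.41) and Tppp3 lower (0.922, 0.656 to 0.966), and neither was past 2-fold. At resolution 0.6 the split was another one: 276 of the 554 cells (49.8%) fell into group 3, with 98.8% of cluster 4, 63 (11.4%) into group 0, with 99.7% of cluster 0, and 212 (38.3%) into group 6, which held 75.9% of cluster 6. The other 3 cells were in group 4. Since the groups come from the same RNA values, both splits are a description.

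The file headers name a graph of the RNA values for the clusterings, but whether the antibody tags took part in forming the clusters is not stated. The tag contrasts between clusters are therefore descriptions. Tags are given per 10000 tags of the summed cells, so a tag can move because others do. CD16.2, the Fc receptor FcγRIV typical of non-classical monocytes, had 123, 81.7, 119 and 92.8 tags in cluster 1, against 80.6, 60.4, 94.9 and 80.9 in cluster 0 and 391, 213, 283 and 206 in cluster 4, in the order of libraries used above. Cluster 1 lay between the neighbours in each library, 0.402 times the level of cluster 4 by the median (0.314 to 0.450) and 1.30 times that of cluster 0 (1.15 to 1.52), which puts it nearer to cluster 0. Its gene Fcgr4 had 37.6, 40.9, 39.3 and 25 CPM in cluster 1, 23.4, 10.8, 19.1 and 15.7 CPM in cluster 0 and 121, 65.0, 89.8 and 69.3 CPM in cluster 4, in the same order. Ly-6C, the marker of classical cells, had 2570, 2836, 3013 and 3836 tags in cluster 1, against 2909, 3180, 3357 and 4078 in cluster 0 and 1867, 2412, 2408 and 3281 in cluster 4. H-2, the class I MHC molecules, had 457, 564, 550 and 666 tags in cluster 1, 348, 440, 484 and 531 in cluster 0 and 610, 765, 676 and 798 in cluster 4.

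Of the 47 antibodies, 12 placed cluster 1 between clusters 0 and 4 in all 4 libraries, 7 in 3, 15 in 2, 9 in 1 and 4 in none. The 12 were CD16.2, CD184 (Cxcr4), CD305 (Lair1), CD39, CD49D, CD54, Cx3cr1, H-2, I-A-I-E, CD11c, CD45 and Ly-6C. Most of these gaps were small: CD39, for example, had 62.9, 70.2, 83.2 and 76.1 tags in cluster 1, 60.3, 63.4, 76.6 and 71.0 in cluster 0 and 66.9, 73.7, 93.6 and 86.7 in cluster 4. CD16.2 against cluster 4 was the only antibody past 2-fold in each library, a call that ended once the 2% of cells richest in UMIs were left out. Against cluster 0 and against the other cells 0 antibodies were past 2-fold. The CD36 antibody had 341, 413, 438 and 546 tags in cluster 1 and 297, 388, 403 and 505 in cluster 4. Its median ratio was 1.09 (1.07 to 1.15), whereas its RNA was lower in cluster 1. CD84 had a like ratio, 1.07 (1.04 to 1.12), so no opposite change is read from the CD36 tags.

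**Figure D4:**
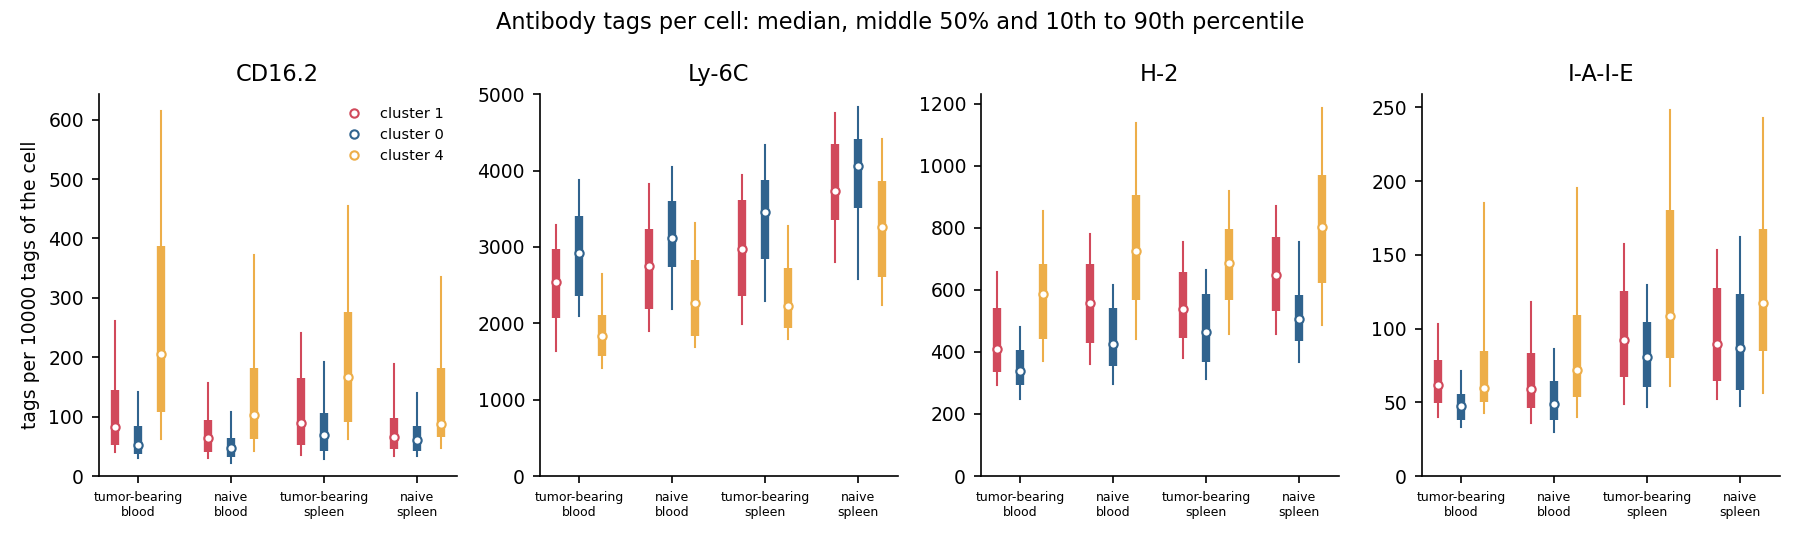
Antibody tags per 10000 tags of a cell are shown for clusters 1, 0 and 4 in the 4 blood and spleen libraries, as the median (open circle), the middle 50% of cells (thick line) and the 10th to 90th percentile (thin line). The CD16.2 median of cluster 1 lies between 64.1 and 89.8 tags, against 48.0 to 69.6 in cluster 0 and 87.3 to 206 in cluster 4.

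Against all other counted cells of blood and spleen, 18 of 4978 measured genes (0.362%) were lower in cluster 1 in each library. They were mainly genes that other clusters carried at high level. Ifit3, an interferon-induced antiviral protein, had 12.2, 8.87, 16.5 and 7.14 CPM in cluster 1 and 111, 166, 84.1 and 93.3 CPM in the other cells. Cxcl10, a chemokine induced by interferons, had 0, 1.48, 4.44 and 0.893 CPM in cluster 1 and 144, 128, 41.9 and 35.7 CPM in the other cells. Of the type I interferon list 6 of 25 measured members were lower (median log2 ratio -0.79), of the MHC class II list 3 of 8 (-1.08) and of the interferon-gamma-induced GTPases 2 of 7 (-1.05). Against cluster 0, none of 17 measured type I interferon genes was called in either direction. With 0.508% of all measured genes called higher and 0.142% lower in that contrast, no call in a list this small is not a result. H2-Aa had 917, 714, 847 and 700 CPM in the other cells, against 211, 267, 168 and 204 CPM in cluster 1 and 28.1, 70.7, 101 and 58.8 CPM in cluster 0.

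In blood, 50 of 5402 genes measured in cluster 1 (0.926%) were higher past 2-fold in tumor-bearing than in naive mice and 31 (0.574%) were lower. With the cell that held the most UMIs of each gene left out on both sides, 28 of the higher and 25 of the lower genes kept their call. The split of higher against lower genes in blood turned round under 3 alternatives, to 28 and 52 without the top cells, to 67 and 107 with each cell thinned to 5000 UMIs and to 244 and 305 with a minimum of 10 UMIs and 5 CPM. The given markers were not among them: 0 of 8 passed, Serpinb10 at 410 and 314 CPM (1.30-fold, 1.14 to 1.48), Tppp3 at 305 and 294 CPM (1.04-fold) and Ace at 244 and 212 CPM (1.15-fold) in tumor-bearing and naive blood. In spleen, 55 of 5517 (0.997%) were higher in tumor-bearing mice and 38 (0.689%) lower, with 46 and 28 kept without the top cells. There too 0 of 8 given markers passed, with Serpinb10 at 394 and 322 CPM (1.22-fold, 1.07 to 1.39) and Tppp3 at 464 and 421 CPM (1.1-fold, 0.979 to 1.24) in tumor-bearing and naive spleen. With shares of calls this small over all measured genes, 0 of 8 markers is not a result in either tissue.

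Of the neutrophil granule list, 10 of 14 measured members were higher in blood (median log2 ratio 1.69, beside 0.02 over all measured genes) and 9 of 15 in spleen (1.32, beside 0.03). These counts and medians include the top cells. In tumor-bearing blood single cells held most UMIs of S100a8, S100a9 and Retnlg, so the blood values are not a level of the typical cell. S100a8, a subunit of calprotectin, had 875 CPM in tumor-bearing and 97.1 CPM in naive blood, 9.02-fold (7.71 to 10.6). A single cell held 643 of the 792 UMIs in tumor-bearing blood, and without the top cells the ratio was 2.39-fold. S100a9, its partner, was 8.40-fold higher in blood with 695 of 865 UMIs in 1 cell, and 1.99-fold higher, below the call, without the top cells. Retnlg, a resistin-like protein, was 6.15-fold higher with 129 of 148 UMIs in 1 cell, and 1.33-fold without the top cells. In spleen S100a8 was spread over more cells: it had 847 CPM in tumor-bearing and 245 CPM in naive spleen (3.46-fold, 3.04 to 3.96), was found in 162 of 165 and 53 of 107 cells, and was 5.18-fold higher without the top cells. Camp, a granule antimicrobial peptide, had 24.1 and 1.79 CPM (13.5-fold, 3.49 to 115) from 38 and 2 UMIs in tumor-bearing and naive spleen. Neutrophil markers together summed to 2237 CPM in tumor-bearing and 426 CPM in naive blood and to 2211 and 793 CPM in tumor-bearing and naive spleen, against 23877 to 63035 CPM in cluster 12, the cells with the most of them. At 0 UMIs in cluster 1 were 4 of 13 of them in tumor-bearing blood (Ngp, Camp, Ltf and Stfa2l1), 3 in naive blood, 0 in tumor-bearing spleen and 1 in naive spleen. S100a8 was also higher in clusters 0 and 4 of the same libraries, 1.39-fold and 4.55-fold in blood and 2.65-fold and 1.89-fold in spleen, and the part of RNA from other cells in these values was not tested.

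Ifitm1, Amica1 and Fkbp5 kept their call without the top cells in both tissues. Ifitm1, an interferon-induced membrane protein, had 49.7 CPM in tumor-bearing and 9.85 CPM in naive blood (5.05-fold, 2.92 to 9.02) and 70.3 and 28.6 CPM in tumor-bearing and naive spleen (2.46-fold, 1.65 to 3.77). Amica1, the junctional adhesion molecule JAML, had 71.8 and 18.2 CPM in tumor-bearing and naive blood (3.94-fold, 2.59 to 6.07) and 53.9 and 20.5 CPM in tumor-bearing and naive spleen (2.62-fold, 1.64 to 4.36). Fkbp5, a co-chaperone induced by glucocorticoids, had 24.3 and 8.38 CPM in tumor-bearing and naive blood (2.90-fold, 1.47 to 5.82) and 38.0 and 8.93 CPM in tumor-bearing and naive spleen (4.26-fold, 2.16 to 9.33). In cluster 0 Fkbp5 was 4.37-fold and 9.97-fold higher in blood and spleen, and in cluster 4 2.71-fold and 3.44-fold. Of the glucocorticoid-responsive list, Fkbp5 was the only one of 8 measured members past 2-fold in either tissue. Over all measured genes 0.926% were called higher and 0.574% lower in blood, and 0.997% and 0.689% in spleen. The lack of calls among the other members is therefore not a result. Others were called in 1 tissue: Prtn3, a granule protease, at 27.6 and 4.93 CPM in tumor-bearing and naive blood, and Cd300lf, an inhibitory receptor, at 39.3 and 6.25 CPM in tumor-bearing and naive spleen (6.29-fold, 2.88 to 16.3).

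Lpl, the lipase that releases fatty acids from lipoproteins, was lower in both tissues. It had 13.3 CPM in tumor-bearing and 69.0 CPM in naive blood, 5.20-fold lower (2.89 to 10.3), and 12.7 CPM in tumor-bearing and 58.0 CPM in naive spleen, 4.58-fold lower (2.74 to 7.98). UMIs of Lpl were in 7 of 73 cells of tumor-bearing and 53 of 183 cells of naive blood, and in 16 of 165 cells of tumor-bearing and 24 of 107 cells of naive spleen. In cluster 0 it was 6.54-fold and 4.92-fold lower in blood and spleen, and in cluster 4 it was 1.35-fold lower in blood and 4.08-fold higher in spleen. Ehd1, a regulator of endocytic recycling, was the other gene lower in both tissues, at 54.2 and 121 CPM in tumor-bearing and naive blood (2.24-fold, 1.64 to 3.11) and 32.3 and 69.6 CPM in tumor-bearing and naive spleen, though it dropped below the call in spleen without the top cells. Of the lipid handling list, 1 of 11 measured members was lower in blood and 3 of 11 in spleen, Lpl with Apoc1 and Sqle (median log2 ratio -0.56). Called lower in spleen and not in blood were Crip2, at 5.70 and 31.2 CPM in tumor-bearing and naive mice (5.48-fold, 2.58 to 13), and Pkdcc, a secreted kinase, at 10.1 and 34.8 CPM (3.43-fold, 1.87 to 6.58).

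The blood and spleen lists shared 12 higher genes, 24% of the blood and 21.8% of the spleen list: Amica1, Arid5a, Cxcr2, Dpep2, Fkbp5, Ifitm1, Lcn2, Retnlg, S100a8, S100a9, Sh2d1b1 and Wfdc21. They shared the 2 lower genes Ehd1 and Lpl, and 0 genes were past 2-fold in opposite directions. Of 21 measured monocyte transcription factors in blood and 20 in spleen 0 were called, and of the integrin and adhesion genes 0 of 14 in each tissue. With 0.926% of measured genes called higher and 0.574% lower in blood, and 0.997% and 0.689% in spleen, counts of 0 in lists this small are not a result. Of the immediate early list, 2 of 14 measured members, Fos and Jun, were lower in tumor-bearing spleen and 0 of 15 in blood, and Fos, at 50.1 and 103 CPM in tumor-bearing and naive spleen, lost its call without the top cells. Eno3 was the only non-classical gene called in blood, at 30.9 and 13.8 CPM in tumor-bearing and naive mice, and it fell below the call without the top cells. Of 19 measured classical genes 3 were called higher in blood, against 0.926% of all measured genes: Vcan (85.1 and 40.4 CPM), Chil3 (4438 and 2109 CPM in tumor-bearing and naive mice) and Mmp8. In spleen 0 of 20 were called higher and 1, Ly6a, lower. No antibody tag was past 2-fold between the states, and the widest were CD16.2 in blood, 123 and 81.7 tags in tumor-bearing and naive mice, and CD11b in spleen, 1037 and 654 tags.

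**Figure D5:**
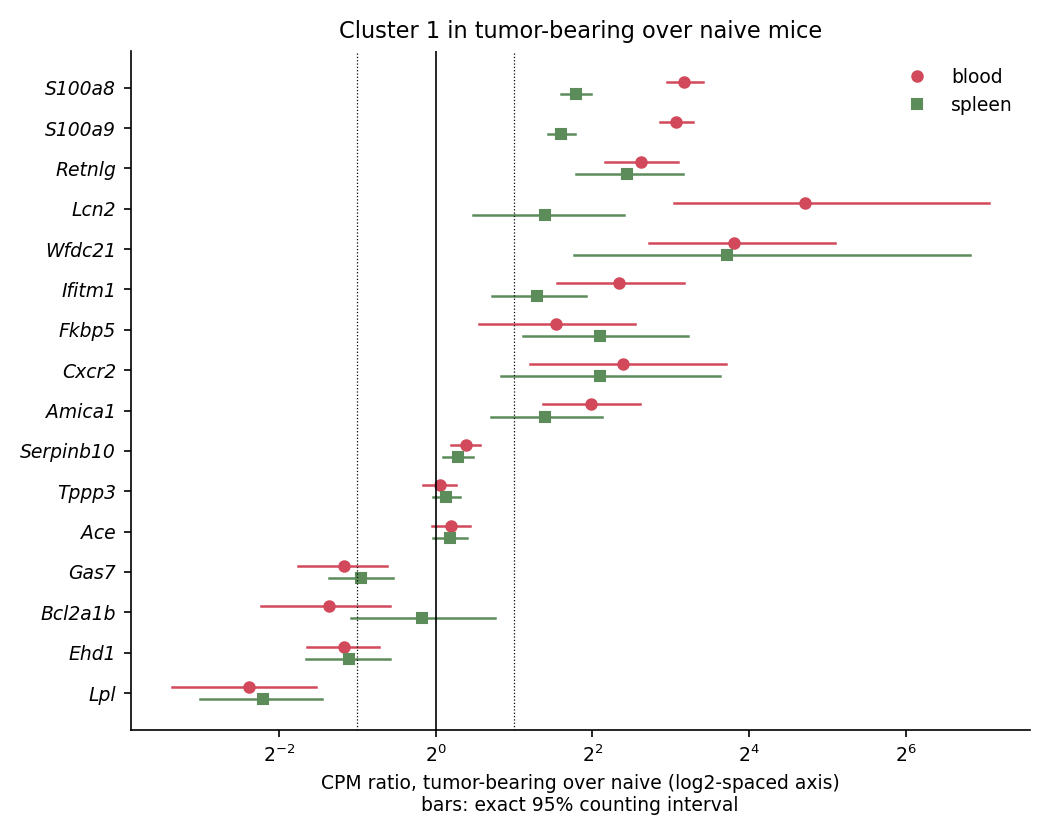
Points give the CPM ratio of tumor-bearing over naive mice in cluster 1 of blood and of spleen for named genes on a log2-spaced axis, with bars for the exact 95% counting interval. S100a8 and Fkbp5 lie to the right of the 2-fold line and Lpl to the left in both tissues, whereas Serpinb10 and Tppp3 lie between 1.04 and 1.30.

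Between tissues of naive mice, 39 of 5444 measured genes (0.716%) were higher in cluster 1 of spleen than of blood and 35 (0.643%) were lower, and 27 and 28 kept their call without the top cells. Between tissues of tumor-bearing mice, 109 of 5511 (1.98%) were higher in spleen and 38 (0.69%) lower, with 99 and 21 kept. Immediate early genes, which cells switch on soon after a stimulus or handling, were among the lower ones in both states. Fos, a subunit of AP-1, had 50.1 CPM in tumor-bearing spleen and 303 CPM in tumor-bearing blood (6.05-fold lower, 4.69 to 7.87), and 103 CPM in naive spleen and 190 CPM in naive blood (1.85-fold lower, 1.5 to 2.30). Dusp1, a phosphatase of MAP kinases, had 30.4 CPM in tumor-bearing spleen and 96.1 CPM in tumor-bearing blood (3.16-fold lower, 2.20 to 4.60), and 22.3 CPM in naive spleen and 78.3 CPM in naive blood (3.51-fold lower, 2.29 to 5.59). In tumor-bearing mice 4 of 14 measured list members, Fos, Jun, Atf3 and Dusp1, were lower (median log2 ratio -0.89 beside 0.01), and in naive mice 2, Atf3 and Dusp1, were lower and Hspa1b was higher (-0.53 beside 0.01). Fos was lower in spleen in clusters 0 and 4 of tumor-bearing mice as well, 3.90-fold and 3.25-fold.

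Among the 6 genes lower in spleen in both states were Atf3, Dusp1, Id3, Idi1 and Ptpn7 (the 6 made up 15.8% of the tumor-bearing and 17.1% of the naive list). Higher in both were Atp8b2, Igkc, Lpin1, Platr17, Rif1 and Slc36a1 (5.50% and 15.4%). Igkc, an immunoglobulin light chain that monocytes do not make, had 92.5 CPM in tumor-bearing spleen and 4.42 CPM in tumor-bearing blood, and 94.6 CPM in naive spleen and 13.8 CPM in naive blood. Its ratio of spleen over blood was 20.9 (interval 8.0 to 77.8, from 4 UMIs in blood) in tumor-bearing and 6.86 (4.49 to 10.8) in naive mice. Igkc was also higher in spleen in cluster 0 (11-fold and 8.79-fold in tumor-bearing and naive mice) and cluster 4 (8.29-fold and 7.37-fold), and the 11 B-cell markers summed to 344 and 378 CPM in tumor-bearing and naive spleen, against 168 and 193 CPM in tumor-bearing and naive blood, with Pax5 at 0 UMIs in all 4 libraries. The part of RNA from other cells in the tissue differences was not tested.

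Several genes were called between tissues in 1 state. Cxcr4, a receptor that holds cells in bone marrow and spleen, had 135 CPM in tumor-bearing spleen and 54.2 CPM in tumor-bearing blood (2.49-fold, 1.82 to 3.47), and 114 CPM in naive spleen and 69.5 CPM in naive blood (1.64-fold, 1.28 to 2.10). Its antibody, CD184, had 49.0 and 37.3 tags in tumor-bearing spleen and blood and 46.0 and 35.8 tags in naive spleen and blood. These ratios, 1.31 and 1.28, were like those of other tags, such as CD24 (1.35 and 1.34) and CD49D (1.38 and 1.29). Tags are shares of a total in which CD11b fell in spleen, as given below, so nothing is read from CD184 about Cxcr4. Srebf2, the main activator of cholesterol synthesis genes, had 28.5 CPM in tumor-bearing spleen and 8.84 CPM in tumor-bearing blood (3.23-fold, 1.5 to 7.92). The granule genes Ngp and Camp had 26.6 and 24.1 CPM in tumor-bearing spleen and 0 UMIs in tumor-bearing blood, so with a floor of 3 UMIs in that library they were at least 8.03-fold and 7.26-fold higher. In naive mice Hspa1b, a heat shock protein whose reads may be shared with its near-identical copy Hspa1a, had 152 CPM in spleen and 47.3 CPM in blood (3.21-fold, 2.48 to 4.16), and Bmf, a pro-apoptotic BCL2 relative, 45.5 and 16.3 CPM (2.80-fold, 1.77 to 4.48). Tppp3 was 1.52-fold higher in spleen than in blood of tumor-bearing mice (1.32 to 1.75) and 1.43-fold higher in naive mice (1.27 to 1.62), while Serpinb10 was 1.04-fold lower and 1.03-fold higher. Among antibodies, CD11b was past 2-fold, with 1037 tags in tumor-bearing spleen and 2351 in tumor-bearing blood, and 654 tags in naive spleen and 1940 in naive blood.

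Bone marrow held too few cells of cluster 1 for a comparison. Serpinb10 had 37 UMIs (458 CPM) in the 8 cells of tumor-bearing marrow and 46 UMIs (275 CPM) in the 17 cells of naive marrow, and Tppp3 had 35 UMIs (434 CPM) and 30 UMIs (180 CPM). Ace had 10 UMIs (124 CPM) and 31 UMIs (186 CPM), and these levels are not set against those of blood and spleen.

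Over the 7 clusters with at least 50 cells in blood and spleen, Serpinb10 was highest in cluster 1 (353 CPM), then in cluster 4 (342 CPM) and, with a gap, in cluster 12 (236 CPM), and it was between 109 and 192 CPM in clusters 16, 0, 6 and 2. Tppp3 was highest in cluster 1 (369 CPM), then in cluster 4 (312 CPM), and between 160 and 237 CPM in the others. The order of clusters 1 and 4 for Serpinb10 was not the same in every library, since naive spleen had 322 CPM in cluster 1 and 348 CPM in cluster 4. The genes whose log2 levels over these 7 clusters followed Serpinb10 most closely were Cytip, Cln3 and Adgre5 (Pearson's r 0.980, 0.964 and 0.964), and those nearest to Tppp3 were Rab5a, Clec4a1 and Tubb6, a beta tubulin (0.936, 0.934 and 0.907). These correlations are descriptions over 7 points that share their libraries.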

How the data were processed

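Raw UMI counts of 25127 genes in 4290 cells were deposited, together with raw tag counts of 47 antibodies for the same cells. Their metadata, per the file headers, gave for 4527 cells the library, the clusters at several resolutions of a graph of the RNA values, and the mitochondrial share, deposited as a fraction of all UMIs. The 237 cells without counts, none of them in cluster 1, were left out. The authors also deposited normalized tag values on a natural log scale, ln(1 + tags per 10000 tags of the cell), used as an alternative only. Per the submitters' processing notes, Cell Ranger and mm10 were used, and the sources used here give no versions, annotation or cell filters. Every counted cell was kept, the smallest with 854 UMIs, and the mitochondrial share reached 9.86% at most. Doublets were not called, and an alternative dropped the 2% of cells richest in UMIs from each library.

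For each cluster and library the UMIs of all cells were added and scaled to CPM, with Python 3.11.15, numpy 2.4.6, scipy 1.17.1 and pandas 2.3.3, and figures were drawn with matplotlib 3.10.9. With 1 library per group no test was made. Genes were measured with 30 UMIs in both sides together and 20 CPM in one and called at 2-fold. Ratios have exact 95% conditional binomial intervals. For the log2 ratios of lists and positions, 1 CPM was added to each level, and for folds nothing. The functions were tested on simulated data. Coordinates came from GENCODE and promoter sequences from RefSeq.

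Named genes were the given markers, up to 12 genes per direction and cluster contrast, up to 10 per direction and library contrast whose call held without the top cell of each side, and up to 6 members per list, without mitochondrial, ribosomal-protein, haemoglobin, immunoglobulin, sex-linked and unnamed genes. A count of 5 or fewer was also named, and genes outside these were chosen after their values were seen, as was Igkc. Cluster 1, its markers and the gene lists were chosen with earlier results of these data known. Alternatives were other scalings, minimums, depths and cells left out, and, chosen after seeing the data, equal weights for both portions of cluster 1.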

Additional observations from a re-analysis of the deposited data

How the results depend on the processing

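Counts of called genes depended mostly on the minimum level and on depth. With a minimum of 10 UMIs and 5 CPM, calls numbered 30 over other cells (18 as reported), 57 over cluster 0 (32), 57 over cluster 4 (35), 549 for tumor-bearing over naive blood (81), 568 for spleen (93), 485 for spleen over blood of naive mice (74) and 695 of tumor-bearing mice (147). With no minimum beyond 1 UMI they numbered 36, 71, 73, 1340, 1115, 820 and 1547 in the same order, where more genes of few molecules were measured. With each cell thinned to 5000 UMIs they numbered 21 over cluster 0, 21 over cluster 4, 174 in blood, 153 in spleen and 136 between naive tissues. Without each gene's top cell the split between naive tissues was 31 higher and 43 lower and that between tumor-bearing tissues 158 and 24, against 39 and 35 and 109 and 38 as reported. Without the top 2% of cells by UMIs the split over cluster 4 was 13 higher and 20 lower. With both portions of cluster 1 weighted equally, an alternative chosen after seeing the data, blood gave 125 calls.

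The share of cluster 1 in tumor tissue was 12.5% (1 of 8 cells) with clusters 0, 1, 2, 4, 6, 12 and 16 as the denominator. The antibody call for CD16.2 against cluster 4 (1 as reported) was 0 with the mean of the authors' normalized values and 0 without the top 2% of cells, and between naive tissues 2 antibodies were called with normalized values. The median position of 0.517 was 0.499 with the mean of per-cell CPM, 0.503 without the top 2% of cells and 0.508 with a pseudo-count of 10 CPM. Leaving out 1 library at a time gave 19 to 26 calls over other cells, 38 to 46 over cluster 0 and 41 to 50 over cluster 4, as fewer libraries had to pass, and positions of 0.507 to 0.518. The ranked genes of the contrasts gave 133 ratios to recompute, with some genes in more than 1 contrast. Of their 1144 recomputed values 68 moved beyond their limits and 0 changed direction where called. The limits were the counting interval for library contrasts and 1 standard deviation over the 4 libraries around the median for cluster contrasts. No paired analysis was possible because each group has 1 library and the labels tie no libraries to the same animals. Depth limits the smallest groups most, 73 cells in tumor-bearing blood and 8 and 17 cells in bone marrow.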
